A study of Mus musculus with 3 samples.

Results

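Heat shock proteins and small chaperones were followed as 10 genes, the rows of the 3 deposited count tables whose symbols are Hspb1, Cryab, Hspb8, Hspa1a, Hspa1b, Hspa8, Hsp90aa1, Hsph1, Dnajb1 and Hspe1. They were chosen by name, with earlier results of these data known, and all 10 of 10 were found among 27999 genes. RNA was measured in single cells of 3 mouse brain tumours, labelled as paediatric glioma and called here tumours 1, 2 and 4 as the labels number them. All 3 share 1 genotype, H3f3a K27M, Pdgfra D842V and Trp53 R270H, introduced by electroporating MADR constructs at postnatal days 1 to 2 into brains of mice of a B6.129(Cg) strain heterozygous for Gt(ROSA)26Sortm4(ACTB-tdTomato,-EGFP)Luo, and tumours 1, 2 and 4 were taken at postnatal days 150, 106 and 149. MADR places a transgene at a chosen locus of dividing cells, the tumours were microdissected and enzymatically dissociated, and GFP-positive cells were sorted and profiled with the 10x Genomics 3′ v2 kit, which counts unique molecular identifiers (UMIs). No control brain and no second genotype were analysed here, and the comparisons below are between kinds of cell inside each tumour.

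Chaperones keep proteins folded, and many of their genes are switched on when unfolded protein, heat or oxidants release heat shock factor 1, which binds inverted repeats of the unit GAA, called heat shock elements. Small heat shock proteins such as those of Hspb1 (Hsp25, the mouse counterpart of human HSP27), Cryab (αB-crystallin) and Hspb8 hold unfolding clients in assemblies without using ATP. Hsp70 proteins, helped by J-domain partners and by Hsp110 as the nucleotide exchange factor, refold clients with ATP. In brain, αB-crystallin is abundant in oligodendrocytes and reactive astrocytes, and the constitutive Hsp70 gene Hspa8 is expressed in most cells.

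Promoters from the RefSeq table of build GRCm38.p6, which covers 250 bases before and 50 after each gene start, were found for 7 of the 10 genes. Those missing from it are Cryab, Hspa8 and Hsp90aa1. The 4 sequences below are shown because Hspb1 is set against the inducible Hsp70 pair Hspa1a and Hspa1b throughout, and because Hspe1 stands for the genes with steady levels. Each gives the 250 bases before the start, 5′ to 3′, with heat shock element letters in capitals.
Hspb1, chr5:135887669-135887918, strand +: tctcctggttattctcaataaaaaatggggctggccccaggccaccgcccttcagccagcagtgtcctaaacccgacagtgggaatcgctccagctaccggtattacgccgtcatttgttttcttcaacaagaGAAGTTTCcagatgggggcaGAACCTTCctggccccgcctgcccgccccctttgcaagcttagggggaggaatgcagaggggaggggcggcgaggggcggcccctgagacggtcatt
Hspa1a, chr17:34972157-34972406, strand -: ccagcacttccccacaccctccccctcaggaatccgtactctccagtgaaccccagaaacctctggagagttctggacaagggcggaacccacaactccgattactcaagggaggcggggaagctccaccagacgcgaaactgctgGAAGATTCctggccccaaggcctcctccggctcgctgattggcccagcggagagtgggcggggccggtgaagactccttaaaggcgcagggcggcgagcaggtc
Hspa1b, chr17:34959239-34959488, strand -: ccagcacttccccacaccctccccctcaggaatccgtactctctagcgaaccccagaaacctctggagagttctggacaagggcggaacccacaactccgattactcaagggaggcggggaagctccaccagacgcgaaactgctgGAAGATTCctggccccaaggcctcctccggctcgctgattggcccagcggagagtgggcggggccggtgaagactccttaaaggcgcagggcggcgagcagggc
Hspe1, chr1:55087898-55088147, strand +: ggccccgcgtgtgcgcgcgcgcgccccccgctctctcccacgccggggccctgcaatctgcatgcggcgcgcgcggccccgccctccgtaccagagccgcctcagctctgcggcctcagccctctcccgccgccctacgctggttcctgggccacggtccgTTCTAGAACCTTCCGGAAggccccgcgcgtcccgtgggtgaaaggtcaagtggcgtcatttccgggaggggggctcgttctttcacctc

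The letters searched were GAANNTTC and TTCNNGAA, each its own reverse complement, and a 3-unit run on either strand, in which one form overlaps the other by 3 letters. Over 32851 promoters of the table, 7.86% held GAANNTTC, 8.52% held TTCNNGAA and 0.603% held a 3-unit run. The Hspb1 window held GAANNTTC starting 117 and 97 bases before the gene start. Hspa1a and Hspa1b each held it once, 104 bases before the start, and their windows differed at 3 of 250 bases (98.8% identical). The 3-unit run lay in the Hspe1 promoter and in both Hsph1 promoters. The Hspb8 window held GAANNTTC just inside the transcript, and none of these letters lay in the 2 windows of Dnajb1. These are letter matches, with no measurement of binding.

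The tables held 3386, 1632 and 4624 cell barcodes and 47120617, 15231673 and 53551127 UMIs in tumours 1, 2 and 4. After cells with fewer than 500 genes or more than 20% of UMIs from mitochondrial genes were left out, 3361, 1548 and 4377 cells remained, and the libraries shared 6 to 20 barcode sequences in pairs. Each tumour was clustered alone without the chaperone genes, and clusters were named from marker genes. Neural cells outside oligodendrocyte-like clusters were called cycling at 5 or more UMIs of 53 cycling genes after thinning to 2000 UMIs, and non-cycling at 1 or fewer. This gave 1060, 84 and 1049 cycling cells, 308 and 190 oligodendrocyte-like cells in tumours 2 and 4, 168, 280 and 80 myeloid-like cells, and 1132, 427 and 2139 non-cycling cells. Neural cells between the cycling thresholds, 960, 89 and 919 (28.6%, 5.75% and 21.0% of the kept cells), entered no comparison. Nor did cells of clusters placed in no class, which were 41, 360 and 0 cells (1.22%, 23.3% and 0%). In tumour 2 these included a cluster of 140 cells that scored highest for oligodendrocyte markers but was left unnamed. Another of 118 cells scored highest for microglia markers. The sum of the 12 oligodendrocyte markers was 78126 and 18275 CPM, counts per summed UMIs of the class scaled to 1e6, in oligodendrocyte-like cells of tumours 2 and 4, against 16074 and 3483 CPM in non-cycling cells. Oligodendrocyte precursor markers summed to 2829 CPM in the oligodendrocyte-like cells of tumour 4 and to 1268 CPM in those of tumour 2. Microglia markers summed to 7660, 23173 and 13214 CPM in myeloid-like cells of tumours 1, 2 and 4, against 141, 807 and 79.1 CPM in non-cycling cells. In tumour 2, 64.3% of the cycling cells lay in 1 cluster whose oligodendrocyte score led that for precursors by less than the margin of 1 required. Its median of 7570.5 UMIs per barcode was the lowest, against 11908.5 in tumour 1 and 9102.5 in tumour 4.

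Tumours differed most in Cryab, the inducible Hsp70 pair and Dnajb1. Over all kept cells, Cryab had 16.3, 814 and 56.5 CPM in tumours 1, 2 and 4, a 49.9-fold span, over cells of which 0, 308 and 190 were oligodendrocyte-like. In non-cycling cells alone it had 19.7, 516 and 49.3 CPM, beside oligodendrocyte marker sums of 1145, 16074 and 3483 CPM. Over all kept cells Hspa1b had 8.50, 169 and 13.3 CPM, Dnajb1 46.0, 500.1 and 65.3 CPM, and Hspa1a 43.2, 414 and 68.1 CPM. Tumour 2 was the highest for all 4 of these genes. The more abundant members spanned less: Hspa8 had 2329, 1198 and 2318 CPM, Hspe1 947, 514 and 799 CPM, and Hsp90aa1 472, 719 and 754 CPM. Hspa8 and Hspe1 were lowest in tumour 2, where Hspa1a, Hspa1b and Dnajb1 were highest. Hspb1 (29.8, 59.0 and 26.6 CPM), Hspb8 (32.2, 19.7 and 25.4 CPM) and Hsph1 (69.7, 78.2 and 54.9 CPM) spanned 1.42-fold to 2.22-fold. These are values of 1 library each, with no test between tumours. Immediate early genes, which tissue dissociation is known to induce, summed to 12058 CPM in non-cycling cells of tumour 2, against 4237 CPM in tumour 1 and 6515 CPM in tumour 4. The part of these genes and of the oligodendrocyte markers in the tumour differences was not tested.

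**Figure D1:**
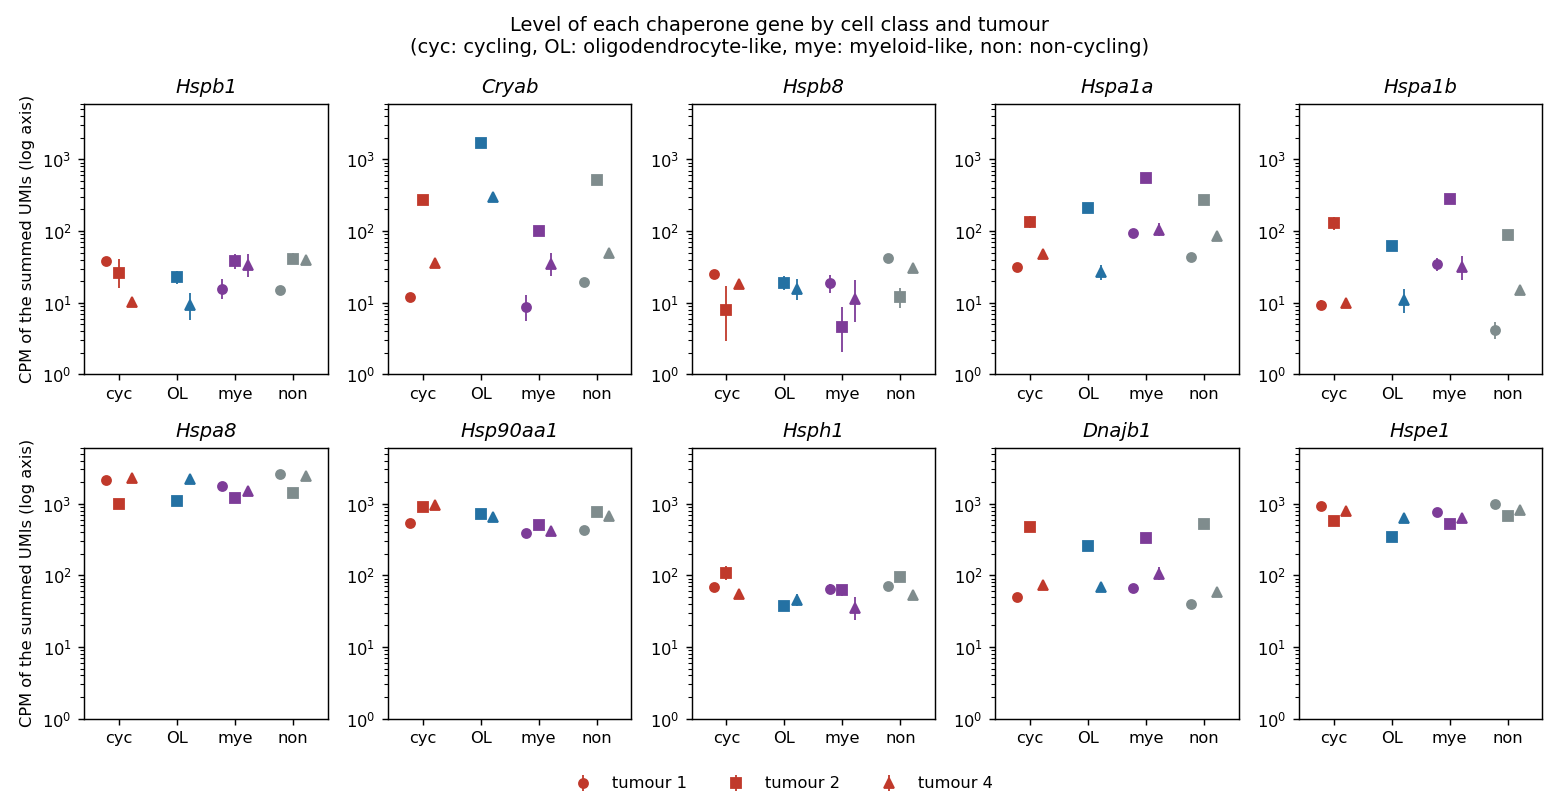
CPM of each of the 10 genes (log axis) in cycling, oligodendrocyte-like, myeloid-like and non-cycling cells, with 1 point per tumour and exact 95% Poisson intervals, which cover counting error only. Cryab is highest in oligodendrocyte-like cells, at 1716 and 303 CPM, and the tumour 2 squares stand above the others for Cryab, Hspa1a, Hspa1b and Dnajb1 in the classes that all tumours share.

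Of the 10 genes, 3 fell in cycling cells relative to non-cycling cells, 0 were called in oligodendrocyte-like cells and 1 rose in myeloid-like cells. Each comparison summed counts per tumour and class and was fitted over all genes with edgeR's quasi-likelihood test, tumour as a block and Benjamini-Hochberg adjustment, and all 10 genes passed the filter on low counts each time. Among 13571 genes tested for cycling, 6.63% were called higher and 2.56% lower, 9.20% in either direction. Among 11471 tested for myeloid-like cells, 9.82% were called higher and 0.942% lower, 10.8% in either direction. The oligodendrocyte-like comparison rests on 2 tumours and called 0% of 11960 genes by edgeR, with 1521 at an unadjusted p under 0.05, whereas DESeq2 called 3.14%, with 2.31% higher and 0.836% lower. Differences in level between tumours are taken up by the block. The p-values set each class difference against how much it varied from tumour to tumour, with spread estimates shared over genes. They cover 3 tumours of 1 genotype, or 2 for oligodendrocyte-like cells. The 3 comparisons share their non-cycling cells. Oligodendrocyte-like and myeloid-like cells were not split by cycling, so their comparisons also differ in cycling genes. Of these, 45 of 46 tested had fold changes above 0 in oligodendrocyte-like cells, 0 of them called. In myeloid-like cells all 44 tested did, 19 of them called. The part of cycling in these comparisons was not tested. Cycling and non-cycling cells were unevenly spread over the clusters. In tumour 2 the cluster with 64.3% of the cycling cells held no non-cycling cells, of which 31.9% lay in a committed precursor-like and 25.5% in an astrocyte-like cluster. The largest cluster of cycling cells held 48.4% of them and 0.0883% of non-cycling cells in tumour 1, and 40.8% and 0.14% in tumour 4. In precursor-like clusters alone, 2312 genes were called, among them 5 members, Hspb1, Cryab, Hspb8 and Hspa1a lower and Hsp90aa1 higher. That fit rests on tumours 1 and 4, since tumour 2 held only 6 precursor-like cycling cells.

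**Figure D2:**
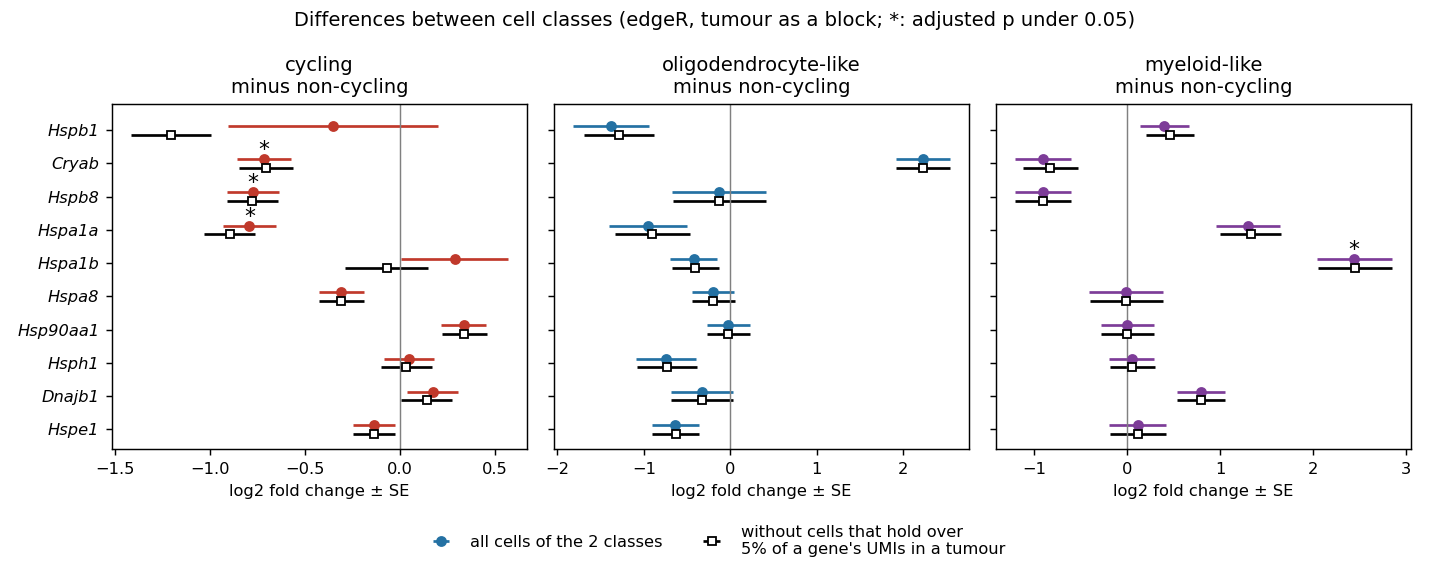
Log2 fold change and SE (edgeR) of each gene in the 3 comparisons, with all cells (filled) and without the 8 cells that held over 5% of a gene's UMIs in their tumour (open). Stars mark the 4 calls at adjusted p under 0.05, and Hspb1 in cycling cells moves to -1.21 without the 8 cells.

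Hspb1 was carried by very few cells. It had 38.4, 26.1 and 10.4 CPM in cycling cells of tumours 1, 2 and 4, against 14.9, 41.2 and 39.2 CPM in non-cycling cells, so tumour 1 went the other way from tumours 2 and 4. Its fold change was -0.35 ± 0.55 on the log2 scale (SE; adjusted p = 0.733, lower in 2 of 3 tumours). A single cycling cell of tumour 1 held 527 of the 1399 Hspb1 UMIs of that tumour, 37.7%. That cell had 39161 UMIs and exactly 5 cycling UMIs after thinning, the threshold. It held 13460 CPM of Hspb1, against 8.88 CPM in the other cycling cells of tumour 1. The inducible genes stood out in it as well, with 2605 CPM of Hspa1a, 1992 CPM of Hspa1b and 1302 CPM of Dnajb1, against 25.5, 4.89 and 47.4 CPM in the other cycling cells. Hspa8 there was 2911 CPM, against 2139 CPM in the others. Without the 8 cells that held over 5% of a member's UMIs in their tumour, a setting added after seeing the data, the log2 fold change of Hspb1 was -1.21. No test is given for it, since the cells were chosen by their UMIs of the members. The fold change was -1.60 (edgeR adjusted p = 0.0212) when 10 cycling UMIs were required. That setting leaves out that cell and many others, with 647, 54 and 651 cycling cells kept in tumours 1, 2 and 4. With cells thinned to 2000 UMIs it was -0.75 (edgeR adjusted p = 0.152).

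The same unevenness held in every tumour. The 1% of cells richest in Hspb1 held 77.8%, 40.3% and 72.9% of its UMIs in tumours 1, 2 and 4. For Hspa1a the shares were 46.3%, 16.9% and 58.5%, and for Cryab 38.9%, 10.7% and 29.2%. Hspa8, whose product is the constitutive Hsp70, was spread widely, with 4.51%, 6.41% and 5.40%. Genes with few UMIs are held by few cells, and Cryab, at a lower CPM than Hspb1 in tumour 1, had the lower share there.

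**Figure D3:**
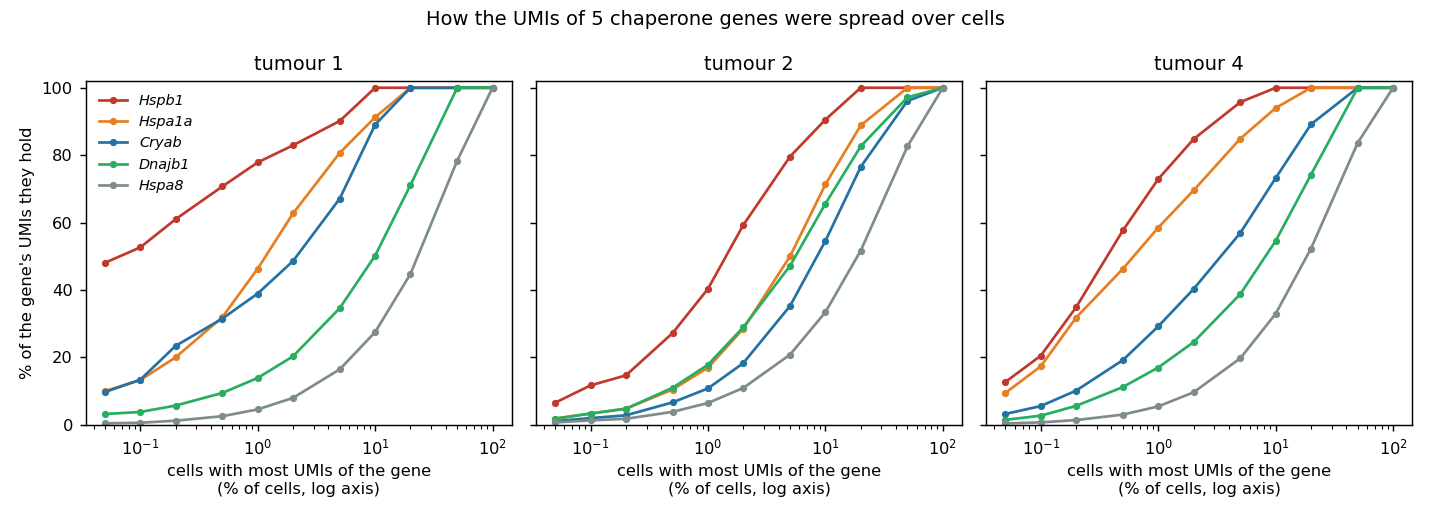
Share of a gene's UMIs (%) held by the cells richest in it, against the share of cells counted (%, log axis), in each tumour. At 1% of cells the Hspb1 line is at 77.8%, 40.3% and 72.9% in tumours 1, 2 and 4, and the Hspa8 line at 4.51%, 6.41% and 5.40%.

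In oligodendrocyte-like cells Hspb1 had 22.7 and 9.18 CPM in tumours 2 and 4, against 41.2 and 39.2 CPM in non-cycling cells, and did not pass the test (log2 fold change -1.38 ± 0.44, SE, edgeR adjusted p = 0.345). In myeloid-like cells it had 15.7, 37.7 and 33.4 CPM, against 14.9, 41.2 and 39.2 CPM in non-cycling cells, and the groups overlapped (edgeR adjusted p = 0.366). Levels of Hspb1 in clusters also rested on single cells. A neural cluster of 273 cells of tumour 1 had 242 CPM with the cell described above and 79.3 CPM without it, and another of 218 cells had 76.2 CPM with the cell of 145 Hspb1 UMIs and 3.03 CPM without it. A precursor-like cluster of 154 cells of tumour 4 had 131 CPM.

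Cryab followed the oligodendrocyte-like cells. It had 1716 and 303 CPM there in tumours 2 and 4, against 516 and 49.3 CPM in non-cycling cells, with the oligodendrocyte-like value higher in both tumours. The log2 fold change was 2.23 ± 0.31 (SE, edgeR adjusted p = 0.167, 2 tumours). It was called in 6 of 14 alternatives that gave a test, with adjusted p from 1.21e-09 to 0.975, and its fold change stayed between 1.95 and 2.95 in them. DESeq2 gave an adjusted p of 7.84e-05. A Cryab UMI was found in 90.9% and 26.3% of oligodendrocyte-like cells at 2000 UMIs, against 49.9% and 8.42% of non-cycling cells.

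In cycling cells Cryab fell. It had 11.9, 268 and 35.6 CPM in cycling cells of tumours 1, 2 and 4, against 19.7, 516 and 49.3 CPM in non-cycling cells, lower in 3 of 3 tumours. The log2 fold change was -0.72 ± 0.14 (SE, edgeR adjusted p = 0.0175). The oligodendrocyte marker sum was lower beside it, at 884, 6410 and 2858 CPM in cycling cells, against 1145, 16074 and 3483 CPM in non-cycling cells. Cryab UMIs per 100 oligodendrocyte marker UMIs were 1.35, 4.18 and 1.25 in cycling cells, against 1.72, 3.21 and 1.42 in non-cycling cells. In myeloid-like cells, which are not known for αB-crystallin, a Cryab UMI was found in 2.98%, 16.4% and 8.75% of cells at 2000 UMIs. These shares rest on 5, 46 and 7 cells, with exact 95% intervals of 0.973% to 6.81%, 12.3% to 21.3% and 3.59% to 17.2%. The shares in non-cycling cells lay inside these intervals in tumours 1 and 4, at 2.30% and 8.42%, and above it in tumour 2, at 49.9%. Median depths were 13159.5, 6893.5 and 8854.5 UMIs in myeloid-like cells, against 11023, 6531 and 9005 UMIs in non-cycling cells. The ratio of Cryab to oligodendrocyte marker UMIs in myeloid-like cells, 1.70, 2.85 and 2.32 per 100, was within the range of the other classes in tumours 1 and 2 and above the 1.25 to 1.66 of the other classes in tumour 4. The part of free RNA in the cycling difference was not tested. The myeloid-like level, 8.58, 99.1 and 34.5 CPM, was below that of non-cycling cells in all 3 tumours without passing the test (log2 fold change -0.90 ± 0.30, SE, edgeR adjusted p = 0.118).

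Hspb8, whose product works with the cochaperone Bag3 in selective autophagy, fell in cycling cells too. It had 25.1, 7.84 and 18.3 CPM in cycling cells, against 42.1, 11.9 and 31.0 CPM in non-cycling cells, on only 6 UMIs in the cycling cells of tumour 2. Its log2 fold change was -0.77 ± 0.14 (SE, edgeR adjusted p = 0.00981), lower in 3 of 3 tumours. Myeloid-like cells had 18.6, 4.53 and 11.1 CPM, again lower than non-cycling cells in each tumour, but did not pass (-0.91 ± 0.30, edgeR adjusted p = 0.117). Oligodendrocyte-like cells had 19.1 and 15.6 CPM in tumours 2 and 4, on either side of the 11.9 and 31.0 CPM of non-cycling cells.

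Of the stress-inducible Hsp70 pair, Hspa1b rose in myeloid-like cells. Hspa1b had 34.3, 276 and 31.2 CPM in myeloid-like cells of tumours 1, 2 and 4, against 4.10, 87.8 and 14.9 CPM in non-cycling cells, higher in 3 of 3 tumours. The log2 fold change was 2.44 ± 0.40 (SE, edgeR adjusted p = 0.0130). Hspa1a, which encodes a nearly identical protein, had 94.7, 556 and 105 CPM in myeloid-like cells, against 44.0, 274 and 86.3 CPM in non-cycling cells. It was higher in 3 of 3 tumours, at 1.3 ± 0.34 on the log2 scale, and missed the threshold (edgeR adjusted p = 0.0682), while 7 of its 18 alternatives called it. Leaving out tumours 1, 2 or 4 in turn left Hspa1b called, and the fit without the tumour block did not call it (edgeR adjusted p = 0.357). The scaling to trimmed means moved the median gene of this comparison by 0.483 on the log2 scale relative to raw CPM. So Hspb1, Hsp90aa1, Hsph1 and Hspe1 have fold changes near or above 0 where their CPM is mostly lower in myeloid-like cells. The same shift enters the fold changes of Hspa1a, Hspa1b and Dnajb1. Raw log2 ratios in tumours 1, 2 and 4 were 1.1, 1.02 and 0.28 for Hspa1a and 3.07, 1.65 and 1.06 for Hspa1b. The immediate early sum was 6219, 11912 and 8262 CPM in myeloid-like cells of tumours 1, 2 and 4, against 4237, 12058 and 6515 CPM in non-cycling cells, higher in tumours 1 and 4. Of the 21 tested, 9 were called higher. In cells at or below the median immediate early share of their tumour and class, Hspa1b was called at a log2 fold change of 2.08 (edgeR adjusted p = 0.0196), Hspa1a had 0.64 (edgeR adjusted p = 0.577) and Cryab was called lower at -1.28 (edgeR adjusted p = 0.0436).

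In cycling cells Hspa1a fell, with 31.1, 135 and 48.0 CPM in cycling cells, against 44.0, 274 and 86.3 CPM in non-cycling cells, lower in 3 of 3 tumours (log2 fold change -0.79 ± 0.14, SE, edgeR adjusted p = 0.00961). Hspa1b had 9.25, 128 and 9.90 CPM in cycling cells, against 4.10, 87.8 and 14.9 CPM in non-cycling cells, and did not pass (0.29 ± 0.28, edgeR adjusted p = 0.573). The cell with 527 Hspb1 UMIs held 78 of the 399 Hspa1b UMIs of tumour 1, 19.5%, and without the 8 cells the log2 fold change of Hspa1b was -0.07. Hspa1b was also below 0 in cells with a low immediate early share (-1.08, edgeR adjusted p = 0.0886), where Hspa1a was at -1.43. In precursor-like clusters of tumours 1 and 4 alone Hspa1b was at -0.47 (edgeR adjusted p = 0.115) and Hspa1a at -0.82. The difference between the 2 genes was not tested. Windows of a read's length, 98 bases, in the last 500 bases of either gene's transcripts were absent from transcripts of every other gene of the annotation. In oligodendrocyte-like cells Hspa1a had 213 and 26.8 CPM, against 274 and 86.3 CPM in non-cycling cells of tumours 2 and 4, and Hspa1b 62.3 and 10.8 CPM, against 87.8 and 14.9 CPM. Both were lower in 2 of 2 tumours and not called (edgeR adjusted p = 0.467 for Hspa1a and 0.553 for Hspa1b). The direction depended on the clusters: at Leiden resolution 0.5, with tumour 2 alone, Hspa1a was at 0.91 and Hspa1b at 0.80. The immediate early sum was 3476 and 4143 CPM in oligodendrocyte-like cells, against 12058 and 6515 CPM in non-cycling cells. All 21 of these genes tested had fold changes below 0, with 0 called, and their part was not tested.

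The cochaperones of Hsp70 were not called in any of the 3 comparisons. Dnajb1, an inducible J-domain protein, had 50.2, 478 and 72.7 CPM in cycling cells, 66.1, 331 and 106 CPM in myeloid-like cells and 39.9, 513 and 58.4 CPM in non-cycling cells of tumours 1, 2 and 4. Its myeloid-like value was thus higher in tumours 1 and 4 and lower in tumour 2 (log2 fold change 0.80 ± 0.26, SE, edgeR adjusted p = 0.111). Hsph1, the Hsp110 exchange factor, had 69.1, 108 and 55.1 CPM in cycling cells, 65.4, 61.9 and 34.5 CPM in myeloid-like cells and 70.1, 95.9 and 52.9 CPM in non-cycling cells, with edgeR adjusted p of 0.859 for cycling and 0.905 for myeloid-like cells. Its oligodendrocyte-like values of 37.2 and 45.5 CPM lay below the 95.9 and 52.9 CPM of non-cycling cells in tumours 2 and 4 (edgeR adjusted p = 0.465).

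The remaining members, Hspa8, Hsp90aa1 and Hspe1, are expressed at rest, and 0 of these 3 were called in any comparison. Hspa8 had 2141, 985 and 2250 CPM in cycling cells, against 2611, 1409 and 2410 CPM in non-cycling cells, lower in 3 of 3 tumours (log2 fold change -0.31 ± 0.12, SE, edgeR adjusted p = 0.153). Hsp90aa1, the inducible cytosolic Hsp90 that neural cells also express at rest, had 533, 886 and 950.3 CPM in cycling cells, against 426, 767 and 668 CPM in non-cycling cells. It was higher in 3 of 3 tumours, by 0.34 ± 0.12 on the log2 scale, and did not pass (edgeR adjusted p = 0.124). Both were called when tumour 2 was left out, with edgeR adjusted p of 0.000356 for Hspa8 and 1.68e-08 for Hsp90aa1. That fit called 4264 genes, against 1248 with all tumours. Hspe1, the mitochondrial co-chaperonin, had 928, 575 and 784 CPM in cycling cells, against 982, 674 and 820 CPM in non-cycling cells (edgeR adjusted p = 0.496). In oligodendrocyte-like cells it had 339 and 630 CPM, against 674 and 820 CPM in non-cycling cells, and was not called (edgeR adjusted p = 0.431). Reads of some members can be shared with processed copies: 58.8% of the 98-base windows at the end of Hspa8 transcripts also occurred in transcripts of other annotated genes, as did 34.7% for Hspe1, 34.0% for Hspb1 and 17.5% for Hsp90aa1, so their levels carry that uncertainty.

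Which members were called in cycling cells depended on single libraries. The count was 3 with all tumours, 2 without tumour 1, 6 without tumour 2 and 0 without tumour 4. Over all genes the counts in the same fits were 1248, 689, 4264 and 468, so the member counts moved with those of all genes. The 2 called without tumour 1 were Hspa1a and Hspb1 (-1.44, edgeR adjusted p = 0.0019), while Cryab and Hspb8 had adjusted p of 0.165 and 0.338 by edgeR. Those without tumour 2 were Cryab, Hspb8, Hspa1a, Hspa8, Hsp90aa1 and Dnajb1. Without tumour 4, Cryab, Hspb8 and Hspa1a kept log2 fold changes of -0.83, -0.73 and -0.75, with adjusted p of 0.0748, 0.330 and 0.152 by edgeR, and Hspb1 turned to 0.58. Without the tumour block 0 members were called, and 194 of 13571 genes.

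Set against each other, small heat shock genes and inducible Hsp70 genes differed in balance between cell classes. The log2 ratio of Hspb1 plus Cryab UMIs over Hspa1a plus Hspa1b UMIs was 2.66 and 3.06 in oligodendrocyte-like cells of tumours 2 and 4, against 0.62 and -0.19 in non-cycling cells of those tumours. In myeloid-like cells of tumours 1, 2 and 4 it was -2.41, -2.61 and -1, against -0.48, 0.62 and -0.19 in non-cycling cells. The myeloid-like values lay below, and the oligodendrocyte-like values above, those of non-cycling cells without overlap. Cycling cells, at 0.32, 0.16 and -0.33, overlapped with non-cycling cells. With 3 tumours an exact two-sided sign permutation test cannot give p under 0.25, so none is given. Cryab supplied the high end: with Hspb1 alone above the line the mean over tumours was -2.81 in oligodendrocyte-like cells, against 2.86 for the sum.

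**Figure D4:**
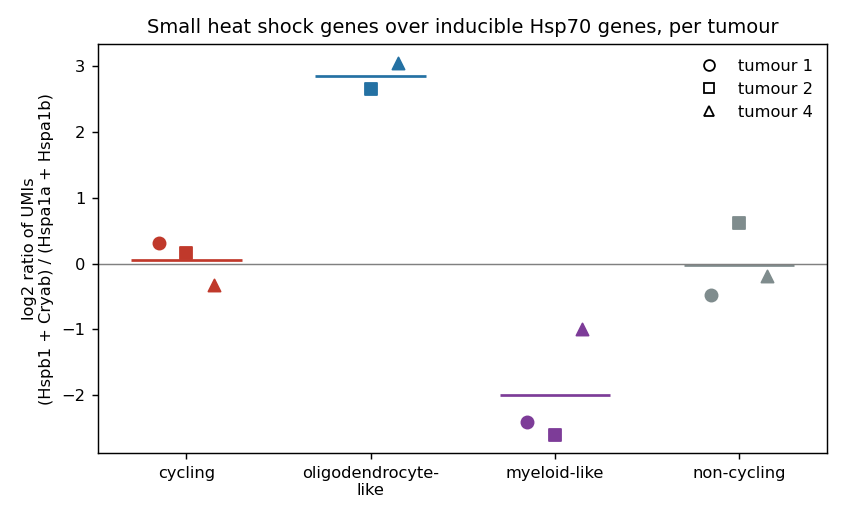
Log2 ratio of UMIs of Hspb1 plus Cryab over Hspa1a plus Hspa1b in each class, with 1 point per tumour and a line at the mean. Oligodendrocyte-like cells sit at 2.66 and 3.06, myeloid-like cells between -2.61 and -1 and non-cycling cells between -0.48 and 0.62.

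Across the 38 clusters of at least 50 cells, with log2(CPM + 10) centred within each tumour, Cryab and Hspb1 had different companions. These are descriptions, since clusters of a tumour share a library, its depth and its free RNA. Cryab tracked the oligodendrocyte marker sum, with Pearson's r of 0.899 over the 38 clusters and 0.884, 0.914 and 0.876 within tumours 1, 2 and 4. Its r with Hspb1 was 0.190 and with Hspa1a -0.130. Hspb1 tracked Hspb8, with r of 0.727 (0.845, 0.783 and 0.491 within tumours), and Hspa1a, with r of 0.587 (0.633, 0.458 and 0.831). Hspa1a and Hspa1b had r of 0.815, with r to the immediate early sum of 0.560 for Hspa1a and 0.602 for Hspa1b. That r was 0.768 for Dnajb1 (0.352, 0.819 and 0.648 within tumours) and 0.721 for Hsph1 (-0.131, 0.840 and 0.361). Hsp90aa1 and Hsph1 had r of 0.744, positive within every tumour. Dnajb1 with Hsph1 had r of 0.746 over the 38 clusters, but 0.0389, 0.908 and -0.224 within tumours 1, 2 and 4, so only tumour 2 held it.

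**Figure D5:**
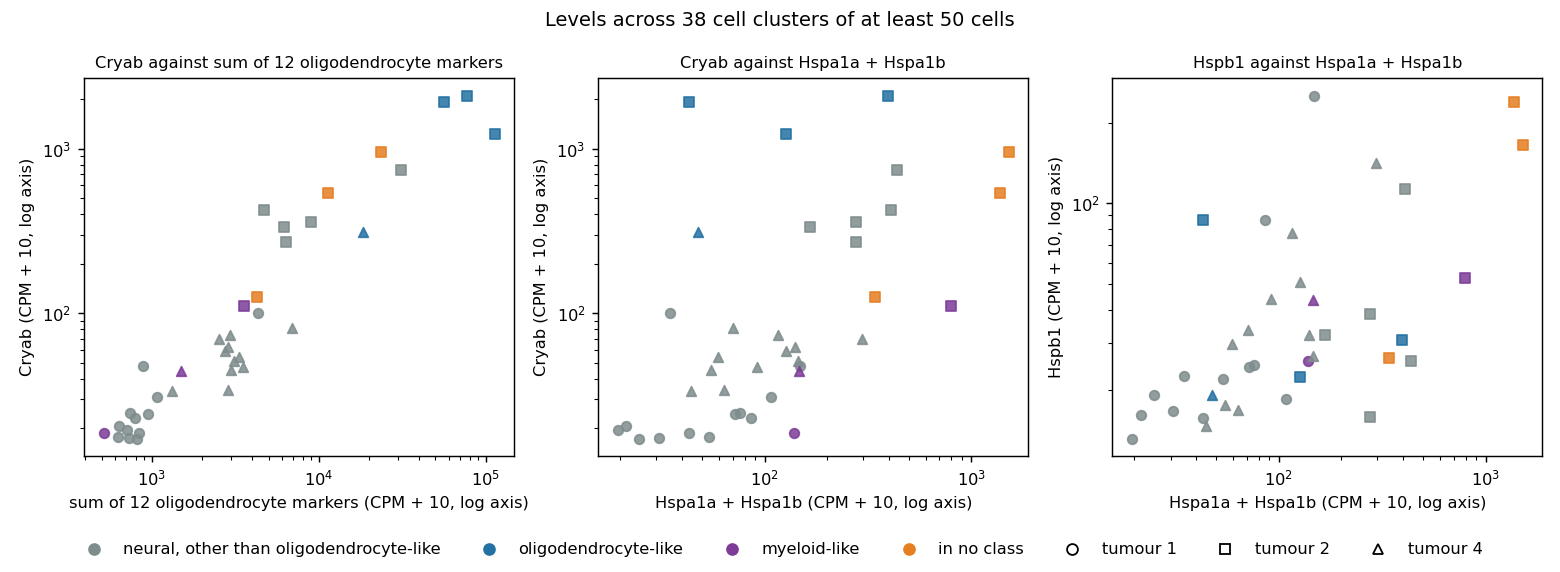
Levels in 38 clusters (CPM + 10, log axes), with colour for the class and marker shape for the tumour: Cryab against the sum of 12 oligodendrocyte markers, Cryab against Hspa1a plus Hspa1b, and Hspb1 against Hspa1a plus Hspa1b. Cryab rises with the marker sum (r = 0.899, centred within tumour), and Hspb1 with Hspa1a (r = 0.587, cells with many Hspb1 UMIs included).

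Among 3531 genes that reached 50 CPM in a cluster of every tumour, those outside the chaperone lists most like Hspb1 across clusters were Batf2 (r = 0.812), Gbp2 (0.805), Ly6c1 (0.766), Ly6a (0.736) and Ifitm3 (0.732). Those most like Cryab included Josd2 (r = 0.886), Map1a (0.875), Sept4 (0.872) and Cnp (0.869). Cnp is among the oligodendrocyte markers used to name the clusters, and Ly6c1 among the endothelial ones. A cluster of 59 cells of tumour 2 that scored highest for endothelial markers had 228 CPM of Hspb1, and 175 CPM without its richest cell. For the sum of Hspa1a and Hspa1b they were Atf3 (r = 0.803), Dusp1 (0.743), Rsad2 (0.730), Chka (0.720) and Mafg (0.712). Atf3 and Dusp1 belong to the immediate early list. Within single tumours these r ranged from 0.354, for Mafg in tumour 4, to 0.961, for Josd2 in tumour 2.

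In single cells thinned to 2000 UMIs, the inducible Hsp70 genes were often found in the same cells. Hspa1a was found in 33.3%, 51.1% and 54.2% of non-cycling cells with a Hspa1b UMI in tumours 1, 2 and 4, of 9, 45 and 48 cells, against 4.54%, 15.5% and 5.07% of those without. In myeloid-like cells of tumour 2 the shares were 74.4% of 78 cells and 26.7% of 202 cells. Spearman's rho between the 2 genes over non-cycling cells was 0.122, 0.308 and 0.314. Hspb1 was found in 5.56%, 8.54% and 12.9% of non-cycling cells with a Hspa1a UMI, against 1.58%, 2.61% and 2.69% of those without, with exact 95% intervals that were apart in tumour 4. Cryab was found in 1.85%, 51.2% and 16.7% of non-cycling cells with a Hspa1a UMI, against 2.32%, 49.6% and 7.87% of those without, and its intervals too were apart in tumour 4. These intervals cover counting error only, and cells of a tumour are not replicates, so they give no test. None of the 4 classes is known to lack the Hsp70 genes, so no background share is available for them.

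Besides the 10 members, 68 genes in 6 lists of chaperones and heat shock genes were considered, 67 of them in the files. In cycling cells 62 were tested, 3 were higher and 0 lower, where 6.63% of all genes were higher and 2.56% lower, with a median log2 fold change of -0.07, against -0.04 over all genes and -0.22 over the 10 members. The 3 were Hspa14, a ribosome-associated Hsp70 (0.98 ± 0.13), Hspb6, a small heat shock protein (1.04 ± 0.17), and Fkbp5, an Hsp90 cochaperone (0.67 ± 0.15), with edgeR adjusted p of 0.00207, 0.00669 and 0.0255. Fkbp5 had 18.6, 13.1 and 19.7 CPM in cycling cells, against 10.9, 11.9 and 11.7 CPM in non-cycling cells, and was called in 11 of 20 alternatives. Those that did not call it include DESeq2 (adjusted p = 0.183) and the fits without tumour 1 or tumour 4 (edgeR adjusted p = 0.5001 and 0.530). Hspa14 had 54.1, 95.4 and 48.2 CPM in cycling cells, against 28.1, 51.1 and 22.1 CPM in non-cycling cells, higher in 3 of 3 tumours. Hspb6 had 26.3, 30.04 and 15.7 CPM in cycling cells, against 13.2, 8.66 and 8.26 CPM in non-cycling cells, so a small heat shock gene outside the members went the other way from Cryab and Hspb8. Of the 8 chaperonin genes tested, 0 were called and 7 had fold changes below 0. In myeloid-like cells 58 were tested and 2 were higher, where 9.82% of all genes were, among them Hmox1, haem oxygenase (2.60 ± 0.31, edgeR adjusted p = 0.00333). Hmox1 had 67.6, 240.0 and 252 CPM in myeloid-like cells, against 19.9, 60.03 and 42.8 CPM in non-cycling cells. The median was -0.18 for these 58, against -0.11 over all genes and 0.08 over the members. In oligodendrocyte-like cells 0 of 62 were called.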

How the data were processed

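Gene counts (UMIs per gene and cell) were deposited by the authors for 3 tumours. They came from Cell Ranger 1.3.0, with STAR 2.5.1 and build mm10, per the submitters' processing notes. A deposited normalized table was not used. Cells with under 500 genes or over 20% mitochondrial UMIs were left out, which removed 25, 81 and 247 barcodes of tumours 1, 2 and 4 by the second limit and 3 of tumour 2 by the first. Clusters (scanpy 1.11.5, Leiden resolution 1) were made per tumour without chaperone genes and named from marker lists. The margin of 1 that keeps a cluster oligodendrocyte-like was set after marker levels were seen. Scrublet called 0, 8 and 0 doublets, and no cell was removed for it. The sources used here do not say if the authors had taken doublets out. Names rebuilt in this way may differ from the study's.

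Counts were summed per tumour and class and tested with edgeR 4.0.16 (quasi-likelihood, trimmed-mean scaling, low-count filter, tumour as a block, Benjamini-Hochberg adjustment, threshold 0.05). DESeq2 1.42.0 was an alternative. Classes of a tumour come from 1 library, and their deviations from the class means correlated at r of 0.641 to 0.775 (cycling), 0.634 (oligodendrocyte-like) and 0.468 to 0.538 (myeloid-like). The edgeR fits were also run on counts simulated with their own estimated spread and known fold changes in some genes. That simulation does not bear on the thresholds for cells, cycling or cluster names. Intervals are exact at 95% and cover counting error only. All 10 members were described, with other listed chaperone genes that passed the test and the 5 genes most like Hspb1, Cryab and the Hspa1a and Hspa1b sum. Members and lists were chosen with earlier results of these data known. Of the genes this rule names, 2 are not reported here.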

Additional observations from a re-analysis of the deposited data

Results flagged for a closer look

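Cells of clusters placed in no class, 41 in tumour 1 and 360 in tumour 2, entered no comparison. Several members were higher in them than in any of the 4 classes compared in their tumour. In tumour 1, Hspb1 had 89.2 CPM in these cells, against 38.4 CPM in cycling cells, the highest class. Cryab had 43.6 CPM there, against 19.7 CPM in non-cycling cells, and Hspa1a 142.8 CPM, against 94.7 CPM in myeloid-like cells. These rest on 45 UMIs of Hspb1, 22 of Cryab and 72 of Hspa1a. Markers of other cell types were higher beside them: astrocyte markers summed to 3090 CPM in these cells, against 216 CPM in non-cycling cells, endothelial markers to 534 CPM, against 35.8 CPM, and mural markers to 712 CPM, against 65.0 CPM.

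In tumour 2, Hspb1 had 137.3 CPM in the 360 cells, against 41.2 CPM in non-cycling cells, and Hspb8 33.6 CPM, against 19.1 CPM in oligodendrocyte-like cells and 44.4 CPM in neural cells between the cycling thresholds. Hspa1a had 794.6 CPM and Hspa1b 341.6 CPM, against 556 and 276 CPM in myeloid-like cells. Dnajb1 had 879 CPM, against 513 CPM in non-cycling cells. A cluster of 140 of these cells had 1101 CPM of Hspa1a, 1356 CPM of Dnajb1 and a median mitochondrial share of 11.2%. That cluster scored highest for oligodendrocyte markers, at 5.695 against 2.468 for the next list, but was left unnamed. The immediate early sum of the 360 cells was 13207 CPM, against 12058 CPM in non-cycling cells. Oligodendrocyte markers summed to 14526 CPM in the 360 cells, against 16074 CPM in non-cycling cells. Microglia markers summed to 7301 CPM in the 360 cells, against 807 CPM in non-cycling cells, and endothelial markers to 512 CPM, against 44.2 CPM. A cluster of 118 of the 360 cells scored highest for microglia markers. The part of these in the levels was not tested.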

How the results depend on the processing

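Among fold changes of named genes under alternatives, 508 kept their direction and side of the threshold or, with no test, moved by no more than the main SE. Among those tested, 30 gained a call, 39 lost one and 52 changed sign. Another 17 had no test and moved by more than the main SE, changes of sign among them. The 80 CPM values, means over tumours, moved by less than their SD over tumours. That limit is loose, as Cryab in non-cycling cells had a mean of 195 and an SD of 278 CPM. Hspb1 in cycling cells of tumour 1 went from 38.4 to 22.2 CPM after thinning, outside its exact interval of 35.6 to 41.4 CPM. The Scrublet, marker level and high-UMI cell settings were added after seeing the data. The cause of each change below was not tested. Depth limits Hspb8 in tumour 2, where 84 cycling cells held 6 of its UMIs.

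For cycling against non-cycling cells, where the fit of precursor-like clusters alone rests on tumours 1 and 4, 1248 genes were called. The count was 710 at Leiden resolution 0.5, 2312 in precursor-like clusters alone, 445 in the joint fit of 4 classes, 2156 with no filter on low counts and 486 with oligodendrocyte-like cells kept, and ranged from 468 to 4264 when each tumour was left out. The 3 members called became 5 in precursor-like clusters alone, 0 in the joint fit and 0 with oligodendrocyte-like cells kept, and ranged from 0 to 6 when each tumour was left out. Without the replicate block 194 genes and 0 members were called, and Dnajb1 turned to -0.0099. Hspa1b turned to -0.11 with 10 cycling UMIs required, -0.47 in precursor-like clusters alone, -1.08 in cells with low immediate early share and -0.070 without high-UMI cells, and ranged from -0.019 to 0.85 when each tumour was left out. Hsph1 turned to -0.066 with 10 cycling UMIs, -0.046 at Leiden resolution 0.5, -0.20 at low immediate early share, -0.18 after thinning and -0.055 with the stricter cell filter. Dnajb1 turned to -0.044 after thinning and Hspe1 to 0.012 with clusters named by marker level alone. Hspb1 ranged from -1.44 to 0.58 when each tumour was left out.

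For oligodendrocyte-like against non-cycling cells, the 0 genes called became 376 with DESeq2, 48 with RLE size factors, 27 after thinning, 540 with chaperone genes kept in clustering, 1657 with the highest Scrublet scores left out, 380 in the joint fit, 1166 with no filter on low counts and 634 with the stricter cell filter. The 0 members became 1 with DESeq2, 1 with chaperone genes kept, 1 without the highest Scrublet scores, 1 in the joint fit, 2 with no filter and 2 with the stricter cell filter. Hspb8 turned to 0.097 at Leiden resolution 2, 0.17 with chaperone genes kept, 0.071 by marker level alone, 0.22 without the highest Scrublet scores and 0.086 with the stricter cell filter. Hspa1b turned to 0.14 at Leiden resolution 2, 0.16 against precursor-like cells, 0.050 with chaperone genes kept and 0.25 by marker level alone. Hsp90aa1 turned to 0.018 at Leiden resolution 2, 0.024 against precursor-like cells and 0.041 at low immediate early share. Dnajb1 turned to 0.20 at Leiden resolution 2, 0.16 by marker level alone and 0.016 with the stricter cell filter. Leiden resolution 0.5 and leaving out either tumour left 1 tumour and no test. At resolution 0.5, with tumour 2 alone, Hspb1, Hspb8, Hspa1a and Hspa1b turned to 0.46, 1.42, 0.91 and 0.80. Dnajb1 turned to 0.35 and Hsp90aa1 to 0.12 there.

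For myeloid-like against non-cycling cells, the 1235 genes called became 2386 in the joint fit and 2383 with no filter, and ranged from 902 to 2723 when each tumour was left out. In the main fit 1 of 10 members was called, where 10.8% of all genes were. The member count became 2 with DESeq2, at Leiden resolution 0.5, against all neural cells, at low immediate early share, after thinning and with no filter. It was 4 in the joint fit and 0 at Leiden resolution 2, and ranged from 1 to 4 when each tumour was left out. Without the replicate block 684 genes and 0 members were called. Without trimmed-mean scaling 740 genes were higher and 91 lower, against 1127 and 108 with it. Hsp90aa1 turned to -0.051 at Leiden resolution 0.5, -0.10 against all neural cells, -0.23 at low immediate early share, -0.048 by marker level alone, -0.030 without the highest Scrublet scores, -0.043 with no filter and -0.052 with the stricter cell filter, and ranged from -0.20 to 0.20 when each tumour was left out. Hsph1 turned to -0.054 at Leiden resolution 0.5, -0.087 at low immediate early share, -0.017 with chaperone genes kept, -0.051 by marker level alone, -0.10 without the highest Scrublet scores and -0.0091 with the stricter cell filter, and ranged from -0.10 to 0.21. Hspa8 turned to 0.27 at Leiden resolution 2, 0.13 against all neural cells, 0.10 after thinning, 0.018 with chaperone genes kept and 0.10 in the joint fit, and ranged from -0.42 to 0.22. Hspe1 ranged from -0.15 to 0.29 when each tumour was left out.

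The 10 members summed to 4291 CPM in non-cycling cells, 4156 CPM after thinning and 4189 CPM as the mean of each cell's own CPM. The mean log2 ratio was 0.05 in cycling cells and became -0.81 with Cryab alone, -1.96 with Hspb1 alone and -1.74 with Dnajb1 and Hsph1 added. In oligodendrocyte-like cells 2.86 became -2.81 with Hspb1 alone, 1.32 with both added and 3.37 with the stricter cell filter. In myeloid-like cells -2.005 became -2.99 with Cryab alone and -3.17 with Hspb1 alone. In non-cycling cells -0.02 became -0.61 with Cryab alone, -2.06 with Hspb1 alone and -1.42 with both added.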
